A study of Mus musculus with 2 samples.

Results

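Growth factors, the receptors that stromal and vascular cells carry for them, and the endothelial gene Vwf were examined in brown adipose tissue of fl/fl and 3bKO mice. The group comprised 7 genes out of 628 in the deposited expression table, which are Pdgfra, Pdgfrb, Igf1, Kit, Met, Vegfa and Vwf. They were chosen by name with their measured values in the table known, so every ratio below is a description and no test was made of it. The table holds 1 RNA-seq library of each genotype. By its name it is filtered for differential expression, so shares and ranks over the 628 genes describe a selected list. Both libraries were labelled as brown adipose tissue of C57BL/6 mice kept for 20 weeks on a 60% high-fat diet, and the labels give no sex, age or number of animals.

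The labels do not spell out 3bKO. The study describes mice in which floxed Dnmt3b, a de novo DNA methyltransferase, is deleted by Cre under the Ucp1 promoter, together with fl/fl littermates. The RNA-seq it describes was of mice on chow, however. The study kept other female knockouts and fl/fl littermates on a 60% high-fat diet for 20 weeks, as these labels read. It describes no RNA-seq of them. The name of the deposited table sets Myf5, the promoter of another Cre line, against D3b. The study also refers to an earlier Dnmt3b knockout made with Myf5-Cre, which acts in progenitor cells of brown fat and skeletal muscle. It calls the phenotype of its own female mice opposite to that of the earlier model. Which Cre line the 3bKO library comes from is therefore not known. Dnmt3b was not among the 628 genes, so the deletion could not be checked, and each direction rests on the column headings. With 1 library per genotype there was no replicate error, and a ratio compares 2 libraries. The depth of the libraries was not given in the sources used here.

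Brown fat is more than its adipocytes. It is densely supplied with capillaries, whose endothelial cells are wrapped by pericytes, and it holds fibroblast-like progenitors and resident immune cells. Platelet-derived growth factors act on progenitors through PDGFRα and on pericytes through PDGFRβ, while vascular endothelial growth factor A, which brown adipocytes secrete, acts on the endothelium. Insulin-like growth factor 1, stem cell factor and hepatocyte growth factor act through their own receptor tyrosine kinases, the latter pair through KIT and MET. In the active receptor a pair of kinase domains phosphorylate each other and recruit the PI3K-Akt and MAPK pathways.

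Of the 7 genes, 5 were higher in 3bKO and 2 were lower. Kit, Igf1, Pdgfra, Vwf and Pdgfrb were the higher ones, with ratios of the 3bKO to the fl/fl value between 1.51 and 2.11. Met and Vegfa were both lower, each at 0.67 of its fl/fl value. Higher genes also made up 81.5% of all that were listed and lower genes 18.5%, so the balance of the group, 5 against 2, is close to that of the table. Only Kit passed a 2-fold increase, whereas 47.1% of all listed genes did. None of the 7 was lower by more than 50%, against 4.46% of the listed genes. The median log2 ratio was 0.60 over the 7 genes and 0.96 over the 628. Levels are given in FPKM, in which the fragments of a gene are scaled by its transcript length and by the depth of the library, a scale that allows genes of unlike length to be compared within a library. In bulk tissue, more cells of one type and more RNA per cell cannot be told apart.

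**Figure D1:**
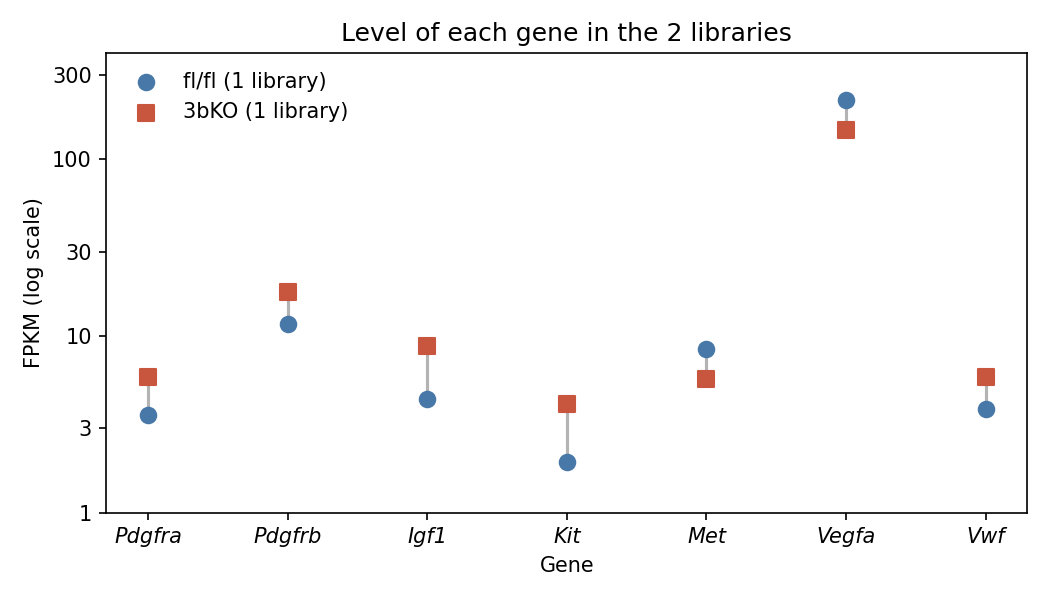
Level of each of the 7 genes in FPKM on a log axis, with a circle for the fl/fl library and a square for the 3bKO library, 1 library each and no error bars. The squares of Pdgfra, Pdgfrb, Igf1, Kit and Vwf lie above their circles and those of Met and Vegfa below, and Vegfa lies far above the others, at 218 and 146 FPKM.

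The PDGF receptors were both higher in 3bKO and nearly kept their proportion to each other. Pdgfra, a marker of fibroblasts and adipose progenitors, was at 3.57 in fl/fl and 5.84 FPKM in 3bKO, a ratio of 1.64 and a log2 ratio of 0.71. Pdgfrb, the receptor of pericytes and other mural cells, was at 11.7 in fl/fl and 17.7 FPKM in 3bKO, a ratio of 1.51 and a log2 ratio of 0.59. The level of Pdgfrb was 3.29 times that of Pdgfra in the fl/fl library and 3.03 times in the 3bKO library. Of 7 PDGF ligands and receptors these were the only 2 listed, so the ligand genes Pdgfa, Pdgfb, Pdgfc and Pdgfd had no value to compare.

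Pdgfra was read beside other markers of fibroblasts and progenitors, of which 11 of 25 were listed, Pdgfra included. All 11 were higher in 3bKO, beside 81.5% of all listed genes, and 7 of them past 2-fold, beside 47.1%. Their median ratio was 2.08, against 1.94 over all listed genes. Their summed level came to 271 in fl/fl and 535 FPKM in 3bKO, with no listed marker at the floor of 0.01 FPKM. The largest ratios were those of Dpt, which encodes dermatopontin, at 30.9 and 75.7 FPKM, and of the microfibril gene Fbn1 at 3.60 and 8.42 FPKM. The collagen genes Col1a1, at 22.8 and 52.2 FPKM, and Col3a1, at 64.1 and 138 FPKM, followed. The smallest was that of Cd34, at 20.4 and 29.6 FPKM. Pdgfra ranked 9th of the 11 by ratio, so its difference was smaller than those of most of the matrix genes on the list. Of 13 markers of mural cells, Pdgfrb itself was the only 1 listed. The part of cell composition in either difference was not tested.

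Igf1 and Kit had the largest ratios of the 7, on either side of 2-fold. Igf1, the ligand of the IGF1 receptor, is made by stromal cells, macrophages and adipocytes. It was at 4.39 in fl/fl and 8.73 FPKM in 3bKO, a ratio of 1.99 and a log2 ratio of 0.99, just inside 2-fold. Igfbp4, a secreted protein that binds IGFs, was the other member of the IGF axis listed, at 20.3 and 34.6 FPKM, or a ratio of 1.70. Of the 21 genes of this axis, 19 were not listed, the receptor gene Igf1r among them. The level of Igfbp4 was 4.63 times that of Igf1 in fl/fl and 3.97 times in 3bKO.

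Kit, the receptor of stem cell factor, is carried by mast cells, by blood progenitors and by some other cells. It was at 1.94 FPKM in fl/fl, the lowest level of the 7, and at 4.10 FPKM in 3bKO, a ratio of 2.11 and a log2 ratio of 1.08, just past 2-fold. With 1 FPKM added to both values this ratio was 1.73. None of the other 12 mast cell markers looked up was listed, including Cpa3 and Mcpt4, which encode mast cell proteases. Kitl, the gene of the ligand, was not listed either.

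Macrophage markers were higher alongside these genes. Of 24, 18 were listed, all higher in 3bKO, with 12 past 2-fold and a median ratio of 2.13. Over all listed genes 81.5% were higher and 47.1% past 2-fold, with a median ratio of 1.94. Their summed level was 385 in fl/fl and 829 FPKM in 3bKO. Trem2, a lipid receptor of macrophages, had the largest ratio at 2.37 and 7.95 FPKM, followed by Gpnmb at 5.67 and 16.9 FPKM, the Fc receptor gene Fcgr3 at 9.43 and 23.9 FPKM and the cathepsin gene Ctss at 24.6 and 60.6 FPKM. The listed macrophage markers had ratios from 1.81 to 3.35, a range that holds those of Igf1 and Kit and lies above those of Pdgfra, Pdgfrb and Vwf. Skeletal muscle genes differed far more. The 29 looked up were chosen with earlier results of these data known. All 29 were listed and higher, with a sum of 263 in fl/fl and 3044 FPKM in 3bKO. The largest ratios among those above the floor in both libraries were those of Myh7, at 0.29 and 35.8 FPKM, Tnni1, at 0.19 and 19.8 FPKM, Myl2, at 0.64 and 65.4 FPKM, and Myh2, at 0.58 and 46.6 FPKM, whereas Myl3 and Tnnt1 were at the floor in fl/fl and at 21.5 and 48.6 FPKM in 3bKO. The part of immune cells or of muscle in the differences of the 7 genes was not tested.

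Vwf encodes von Willebrand factor, which endothelial cells and megakaryocytes make and which binds platelets to injured vessel walls. It was at 3.87 in fl/fl and 5.86 FPKM in 3bKO, a ratio of 1.51 and a log2 ratio of 0.60. Of 28 endothelial markers only Vwf and Cd93 were listed, and Cd93, an endothelial and myeloid surface receptor, was at 19.7 and 30.4 FPKM, a ratio of 1.55. Pecam1, Cdh5 and Kdr, which define endothelium, were not among the listed genes, and a gene outside the table can be called neither changed nor unchanged. Of 13 markers of platelets and megakaryocytes, none but Vwf was listed. The level of Pdgfrb was 3.03 times that of Vwf in fl/fl and 3.02 times in 3bKO, so the mural and the endothelial gene differed by nearly the same factor.

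Vegfa and Met were lower in 3bKO by nearly the same factor, although their levels lay far apart. Vegfa, the main signal for capillary growth, was at 218 in fl/fl and 146 FPKM in 3bKO, a ratio of 0.67 and a log2 ratio of -0.58. In fl/fl it ranked 14th of the 628 genes by level, and in 3bKO 31st. Met, the receptor of hepatocyte growth factor, was at 8.45 in fl/fl and 5.68 FPKM in 3bKO, a ratio of 0.67 and a log2 ratio of -0.57. Against the 116 lower genes of the table, whose median ratio was 0.61, both were lower by less than most.

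Of 21 genes looked up for the VEGF and angiopoietin axes, Vegfa and Aplnr were listed. Aplnr, the endothelial receptor of apelin, is a member of neither axis and was higher, at 4.94 in fl/fl and 11.4 FPKM in 3bKO. The VEGF receptor genes Flt1 and Kdr were not listed. Of 14 genes of the KIT and HGF axes, Plau was listed beside Kit and Met. It encodes urokinase, a protease able to activate hepatocyte growth factor, and was at 4.75 in fl/fl and 10.8 FPKM in 3bKO. Its level was 0.56 of that of Met in fl/fl and 1.90 times that of Met in 3bKO. Brown adipocyte markers were lower alongside Vegfa and Met, with 6 of 22 listed, all 6 lower, 2 of them by more than 50%, beside 18.5% and 4.46% of all listed genes. Their median ratio was 0.58 and their sum, most of it from Pdk4 at 1093 and 747 FPKM, was 1481 in fl/fl and 972 FPKM in 3bKO. Those furthest from equality were the deiodinase gene Dio2, at 48.0 and 20.6 FPKM, the fatty acid transporter gene Slc27a2, at 87.9 and 43.2 FPKM, the coactivator gene Ppargc1a, at 32.5 and 17.5 FPKM, and the glycerol kinase gene Gk, at 141 and 88.7 FPKM. Ucp1 was not listed, nor were Cidea and Cpt1b. By quantitative RT-PCR the study reports Dio2 and Ppargc1a (Pgc1α) higher in brown fat of female knockouts on chow. On the high-fat diet it reports Ucp1, Cidea and Cpt1b higher. The directions of Dio2 and Ppargc1a here are thus opposite to those of the chow mice. Diet differs, and the sex and Cre line of these libraries are not known. Of 16 markers of adipocytes in general, 4 were listed, with the leptin gene Lep at 50.4 and 130 FPKM, Nnat at 47.3 and 119 FPKM and Mest at 7.88 and 16.2 FPKM higher, and the adipsin gene Cfd at 387 and 108 FPKM lower. The part of the adipocyte share in the levels of Vegfa and Met was not tested.

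**Figure D2:**
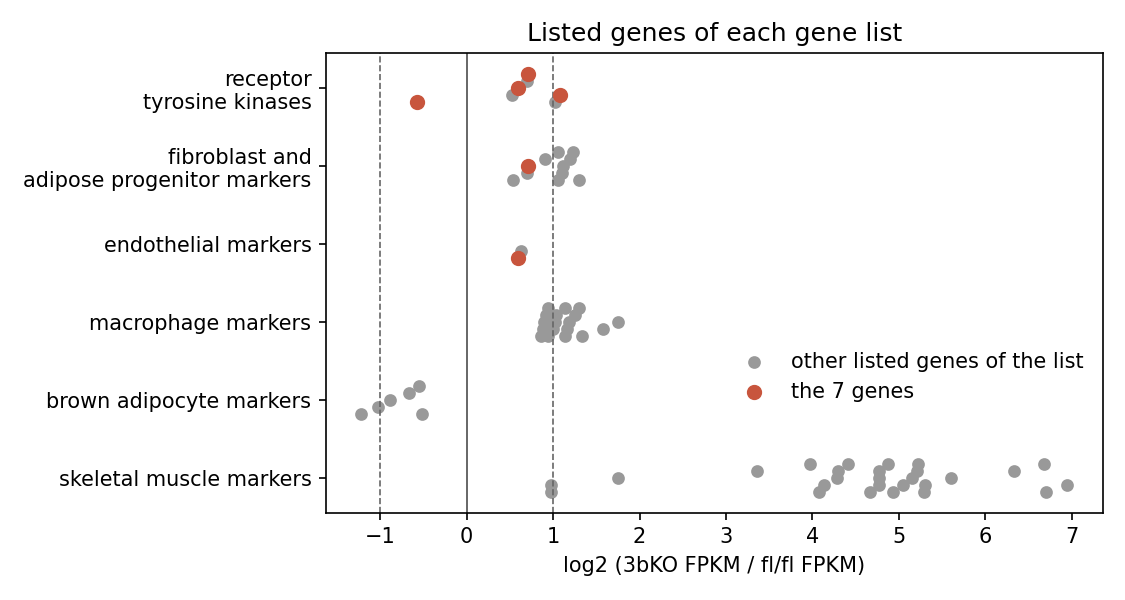
Log2 ratio of 3bKO to fl/fl FPKM for the listed genes of 6 gene lists that were above the floor in both libraries, 1 point per gene, with dashed lines at 2-fold and a vertical spread within each row that only separates the points. Pdgfra, Pdgfrb, Kit and Vwf lie between 0.59 and 1.08, the fibroblast markers between 0.54 and 1.29 and the macrophage markers between 0.85 and 1.75, above Pdgfra, Pdgfrb and Vwf. The muscle markers reach far beyond them, and Met and the brown adipocyte markers lie to the left of 0.

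The order of the genes by level differed between the libraries in the place of Met. In fl/fl the order was Vegfa, Pdgfrb, Met, Igf1, Vwf, Pdgfra and Kit. In 3bKO it was Vegfa, Pdgfrb, Igf1, Vwf, Pdgfra, Met and Kit, with Vwf, Pdgfra and Met between 5.68 and 5.86 FPKM. No spread over samples was available to say which neighbours in either order differ. The level of Vegfa was 18.6 times that of Pdgfrb, the next gene, in fl/fl and 8.25 times in 3bKO. The ratio of Vegfa to Vwf was 56.3 in fl/fl and 24.9 in 3bKO, and that of Kit to Met was 0.23 and 0.72. These proportions within a library do not depend on how the library was scaled.

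**Figure D3:**
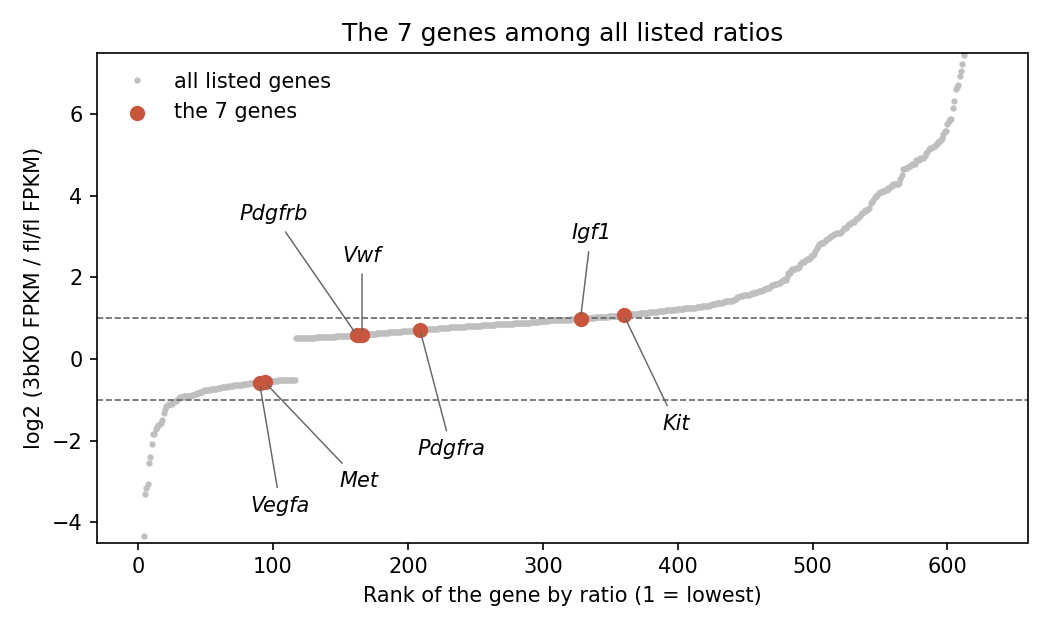
Log2 ratio of 3bKO to fl/fl FPKM of all 628 listed genes in order of rank, with the 7 genes marked and dashed lines at 2-fold (19 genes lie outside the drawn range). The gap around 0 arises because no listed gene has an absolute log2 ratio under 0.50. The 5 higher genes lie on the flat part of the curve between ranks 162 and 360, and Vegfa and Met at ranks 90 and 94.

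Among the 512 higher genes, the ratio of Kit was larger than that of 47.5%, that of Igf1 larger than 41.2%, and that of Pdgfra larger than 18.0%. Vwf exceeded 9.57% and Pdgfrb 8.79% of them. All 5 therefore stood below the median ratio of the higher genes, which was 2.17.

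Of the 7 genes, 4 belong to the family of receptor tyrosine kinases. Of 58 such kinases looked up, 7 were listed, 6 higher and 1 lower, with 2 higher by more than 2-fold. The share of higher genes is thus close to the 81.5% of the table, and 2 of 7 past 2-fold compare with 47.1%. Beside Pdgfra, Pdgfrb, Kit and Met these were Ddr2, a collagen receptor, at 6.22 and 8.93 FPKM, Axl, a receptor used in the clearance of dying cells, at 9.82 and 15.95 FPKM, and Csf1r, the receptor that keeps macrophages alive, at 10.9 and 22.2 FPKM. Met was the only one lower in 3bKO. None of the 47 adaptors, kinases and phosphatases looked up downstream of these receptors was listed. Signalling genes outside that choice of 47 were in the table. Examples are Map2k6, at 0.38 and 3.21 FPKM, and Csk, at 10.5 and 16.5 FPKM, both higher, and Tiam1, at 12.1 and 7.68 FPKM, lower. Over the 6 pathway lists together, Aplnr included, 12 of 155 genes were listed. Of these, 10 were higher and 2 lower, again close to the 81.5% and 18.5% of the table.

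Some of the receptor genes are neighbours in the genome (GRCm38, the build named mm10). Pdgfrb lies on chromosome 18 from 61045127 to 61085067, and Csf1r, a receptor of the same class, begins 20.5 kb further on, at 61105572. The ratio was 1.51 for Pdgfrb and 2.03 for Csf1r, and Csf1r was at 0.93 of the level of Pdgfrb in fl/fl and at 1.25 times in 3bKO. Vwf, from 125552948 to 125686679 on chromosome 6, lies 58.2 kb from Cd9, a tetraspanin gene at 8.17 and 16.4 FPKM. Met lies on the same chromosome from 17463349 to 17573980, with the nearest listed gene 2.71 Mb away.

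The genes whose pair of levels came nearest were found by the distance between log2 values in the 2 libraries, over the 604 genes above the floor in both. For Pdgfra they were Vwf and Dnmt3a, and for Vwf they were Dnmt3a and Pdgfra, all at a distance of 0.13 or less. Dnmt3a, the other de novo methyltransferase gene, was at 3.82 in fl/fl and 6.20 FPKM in 3bKO. The study reports Dnmt3a expression unchanged in brown fat of its own female knockouts. For Pdgfrb the nearest genes were Tacc2 and Setd7, for Igf1 Bmp1 and Pi16, and for Kit Emilin1 was the nearest. For Met they were Tbx3 and Ptpn4, and for Vegfa Ppa1 and C3, the latter pair at 0.23 and 0.27. With 2 libraries such a distance says only that the levels were alike.

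Pdgfra and Kit are a further pair of neighbours, in the cluster of receptor genes on chromosome 5. Pdgfra runs from 75151322 to 75198206 and Kit from 75574987 to 75656722, 377 kb apart, and both were higher in 3bKO. Kdr, the third gene of the cluster, starts 276 kb beyond Kit and was not listed. Igf1 lies on chromosome 10 from 87858265 to 87937047, and Vegfa on chromosome 17 from 46016993 to 46032377. The lncRNA gene Igf1os overlaps Igf1, and Gm52893, another lncRNA gene, overlaps Met. Whether reads were counted by strand was not given in the sources used here, so a share of such reads in the values of Igf1 and Met cannot be told apart.

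Since the study concerns a DNA methyltransferase, whose substrate is the CpG site, the promoters of the genes were set side by side. Methylation was not measured in these libraries. RefSeq windows of GRCm38.p6 were found for 5 of the 7 genes, Pdgfra, Igf1, Kit, Met and Vegfa, and not for Pdgfrb and Vwf. The 250 bases before the transcript start of the first window of each gene are given 5′ to 3′ on the strand of the gene. Each CpG site is in capitals, to show how sparse or dense these sites are. Among these 5, Pdgfra (chr5:75152001-75152250, plus strand) and Igf1 (chr10:87860861-87861110, plus strand) hold the fewest sites. Kit (chr5:75574737-75574986, plus strand) and Met (chr6:17463707-17463956, plus strand) hold the most, and Vegfa (chr17:46032378-46032627, minus strand) lies between. The stretches of Pdgfra, Igf1 and Met lie within the annotated span of their gene, which begins further upstream, and those of Kit and Vegfa lie before it.
Pdgfra: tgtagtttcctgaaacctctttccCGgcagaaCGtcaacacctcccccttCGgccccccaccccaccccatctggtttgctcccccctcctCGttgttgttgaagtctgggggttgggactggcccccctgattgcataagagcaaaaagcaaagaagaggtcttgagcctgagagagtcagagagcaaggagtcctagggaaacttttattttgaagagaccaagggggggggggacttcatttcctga
Igf1: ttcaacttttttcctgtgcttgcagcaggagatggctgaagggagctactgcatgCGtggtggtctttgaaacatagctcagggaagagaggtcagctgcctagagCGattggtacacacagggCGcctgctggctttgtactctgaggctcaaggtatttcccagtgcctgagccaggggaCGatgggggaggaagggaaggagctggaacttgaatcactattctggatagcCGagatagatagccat
Kit: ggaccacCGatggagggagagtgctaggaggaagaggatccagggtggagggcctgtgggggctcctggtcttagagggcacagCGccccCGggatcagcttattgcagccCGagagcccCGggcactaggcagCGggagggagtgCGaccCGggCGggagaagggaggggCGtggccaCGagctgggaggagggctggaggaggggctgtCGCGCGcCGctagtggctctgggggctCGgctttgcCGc
Vegfa: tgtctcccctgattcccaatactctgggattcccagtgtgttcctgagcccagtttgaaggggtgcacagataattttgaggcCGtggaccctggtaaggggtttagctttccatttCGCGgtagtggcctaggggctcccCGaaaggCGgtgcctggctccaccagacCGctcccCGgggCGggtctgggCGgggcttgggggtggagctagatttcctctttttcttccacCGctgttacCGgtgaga
Met: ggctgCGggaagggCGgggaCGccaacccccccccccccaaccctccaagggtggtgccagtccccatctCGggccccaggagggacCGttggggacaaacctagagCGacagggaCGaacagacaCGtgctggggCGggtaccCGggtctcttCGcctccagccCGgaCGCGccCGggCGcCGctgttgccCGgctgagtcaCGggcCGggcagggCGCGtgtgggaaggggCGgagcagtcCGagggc

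There were 4 CpG sites before the start of Pdgfra, 5 for Igf1, 17 for Kit, 11 for Vegfa and 24 for Met. Over 21262 windows of protein-coding genes the median was 10 and the quartiles were 3 and 19. Only Met thus lay outside the quartiles. The CpG ratio, in which the number of sites is divided by that which the base composition would give, was 0.22 for Pdgfra, 0.30 for Igf1, 0.60 for Kit, 0.51 for Vegfa and 0.70 for Met. The median of all these windows was 0.53. At these first windows, both lower genes and Kit thus had ratios near or above the median, and Pdgfra and Igf1 lower ones. A second start of Kit, 4 bases further on, gave 0.63, and a second start of Vegfa, within the gene, gave 0.37. Over the listed genes with a window, with the first window of each, the median was 0.42 for the 365 higher and 0.69 for the 92 lower ones. What lies behind this contrast, cell type included, was not tested. The same stretches were searched on both strands for the GC box (GGGCGG), which stood 3 times before Met, 2 times before Vegfa and 1 time before Kit, and in 42.6% of all windows. No TATA box (TATAAA) was found in the 5 stretches, and 11.6% of all windows hold one. The core of the hypoxia response element (ACGTG or GCGTG) was found at 2 places before Met, 1 of which reads on both strands, and at 1 place each before Kit and Igf1. It was at 0 places before the first start of Vegfa and at 2 before the second, and 44.0% of all windows hold it. These matches describe letters, not bound sites.

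**Figure D4:**
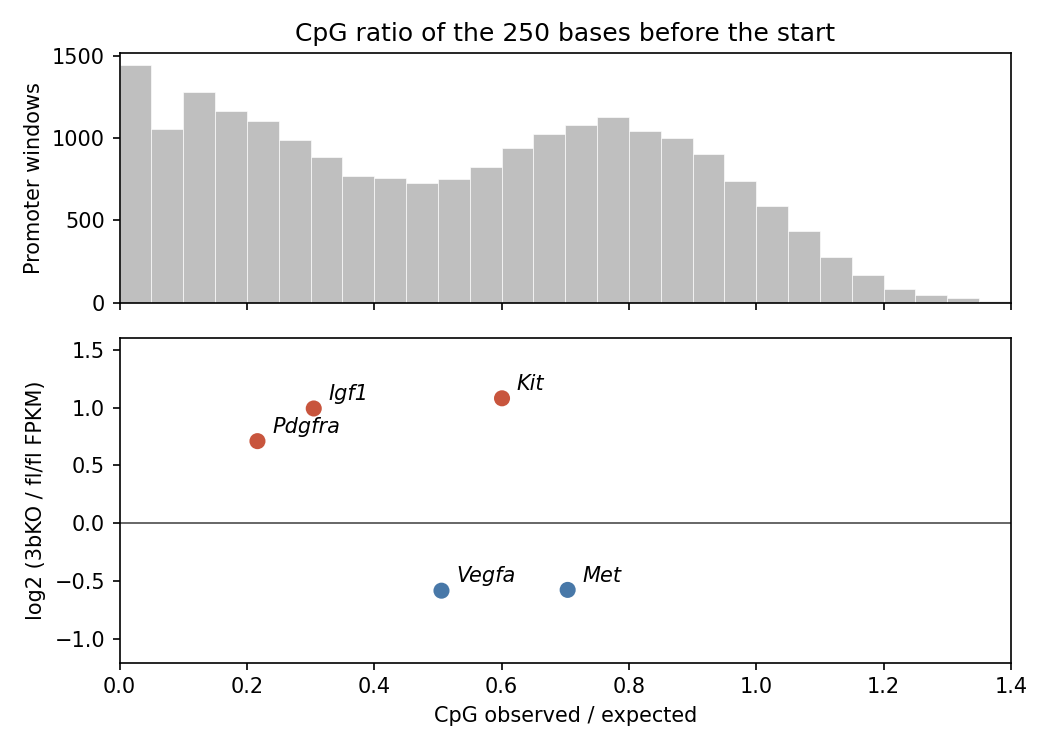
Top, number of protein-coding promoter windows by CpG ratio (observed over expected) of the 250 bases before the start. Bottom, the same ratio at the first window of each of the 5 genes with a window, against their log2 ratio of 3bKO to fl/fl FPKM. Higher genes are in red and lower ones in blue. Pdgfra and Igf1 lie at 0.22 and 0.30, and Vegfa, Kit and Met at 0.51 to 0.70. The second starts of Kit, at 0.63, and of Vegfa, at 0.37, are not drawn.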

How the data were processed

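RNA of brown adipose tissue was extracted with Tri-reagent and sequenced after poly(A) selection, 1 library for fl/fl and 1 for 3bKO. The deposited values are FPKM calculated by the authors. The submitters' processing notes name RSEM, an estimator of transcript abundance, and the build mm10, without version. The table is a list of 628 genes that its name marks as filtered for differential expression. The thresholds of that filter were not given in the sources used here, and no listed gene has an absolute log2 ratio under 0.50. Its lowest value, 0.01, is a floor.

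Gene identifiers were matched to RefSeq of GRCm38.p6 (627 of 628). Ratios were 3bKO over fl/fl without a pseudocount, and genes above 2-fold or below 0.5 were counted. Fold thresholds of 1.5, 3 and 4, pseudocounts of 0.1 and 1 and a minimum of 1 FPKM were tried. No p-value was computed, since each group has 1 library. The 7 genes and the gene lists were chosen with earlier results of these data known. Named genes are the 7, all listed members of the pathway lists, up to 4 listed markers per cell type with the largest absolute log2 ratio (and any at the floor) and the 2 nearest genes by level, of which 1 is not reported here. Other genes named with values, such as Dnmt3a and those in the observations, and the smallest or neighbouring ones, were chosen after their values were seen. CpG sites were counted in RefSeq promoter windows from 250 bases before to 50 after the start. Protein comparisons were not run. The calculation of ratios and CpG counts was checked on simulated data with known answers. This check does not measure how far a ratio of 2 single libraries may be off. Python 3.11.15 with NumPy 2.4.6, pandas 2.3.3 and Matplotlib 3.10.9 was used.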

Additional observations from a re-analysis of the deposited data

How the results depend on the processing

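With 1 library per genotype, the variation of these ratios from mouse to mouse is not known, nor is the depth behind low values such as those of Kit. No paired analysis was possible because each group holds 1 library. The ratios of the 7 genes kept their direction with pseudocounts of 0.1 and 1 FPKM and moved by at most 1.03 and 1.22 times. Of the 7, 1 passed a 2-fold increase. A 1.5-fold increase was passed by 5, and 0 genes passed 3-fold, 4-fold or 2-fold with a pseudocount of 1 FPKM. Over all listed genes the increases numbered 296 past 2-fold, 468 past 1.5-fold, 175 past 3-fold and 148 past 4-fold, and the decreases 28, 87, 16 and 10. Leaving out genes under 1 FPKM in either library gave 174 increases. The receptor tyrosine kinases had 2 increases past 2-fold, 5 past 1.5-fold, 0 past 3-fold and 0 with a pseudocount of 1 FPKM. At 3-fold the fibroblast list had 0 and the macrophage list 1 higher. The muscle list had 16 increases instead of 27 without genes under 1 FPKM in either library. The brown adipocyte list had 2 lower, against 4 at 1.5-fold and 0 at 3-fold. The thresholds and the minimum change how many genes are admitted, and the pseudocount of 1 FPKM draws ratios towards 1. The other counts tried stayed within 1.5 times, and so did the CpG ratios of the 250 bases before the start against the whole windows.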

Other observations

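Further ligands, receptors and coreceptors of stromal and vascular cells stood among the 628 genes. They were chosen after their values were seen. Csf1, the ligand of Csf1r on macrophages, was at 7.23 in fl/fl and 12.5 FPKM in 3bKO. The level of its receptor gene Csf1r was 1.51 times that of Csf1 in fl/fl and 1.77 times in 3bKO. Inhbb, which encodes a subunit of activin B, was at 1.05 and 3.20 FPKM, and Ccn2, a matricellular protein induced by TGF-β, at 2.34 and 6.90 FPKM. The guidance factor genes Sema3c, at 1.88 and 4.50 FPKM, Slit3, at 5.52 and 11.9 FPKM, and Ntn1, at 2.45 and 4.43 FPKM, were all higher in 3bKO. So were the ephrin genes Efnb1, at 17.9 and 26.6 FPKM, and Efnb2, at 7.85 and 12.0 FPKM, the latter a marker of arterial endothelium. Of the heparan sulphate proteoglycans, which hold growth factors at the cell surface, Gpc1, at 7.76 and 14.5 FPKM, and Gpc3, at 3.18 and 8.22 FPKM, were higher, whereas Sdc4, at 44.8 and 26.7 FPKM, was lower.

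Receptor genes other than Met were lower in 3bKO as well. Among them were the cannabinoid receptor gene Cnr1, at 1.17 and 0.14 FPKM, the fatty acid receptor gene Ffar4, at 57.9 and 27.0 FPKM, Cntfr, the receptor subunit of ciliary neurotrophic factor, at 74.1 and 44.7 FPKM, and Ackr3, a scavenging receptor of the chemokine CXCL12, at 72.4 and 50.6 FPKM.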
